A study of Oryza sativa and Oryza rufipogon with 8 samples.

Results

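The genes described here are 10 members of the aquaporin family of rice: 8 plasma membrane intrinsic proteins (PIPs), the tonoplast protein TIP2-1 and the silicon channel Lsi1. They were fixed by identifier, with no measured value in the rule: PIP1-1 (OS02G0666200), PIP1-2 (OS04G0559700), PIP2-1 (OS07G0448800), PIP2-2 (OS02G0629200), PIP2-3 (OS04G0521100), PIP2-4 (OS07G0448100), PIP2-5 (OS07G0448200), PIP2-6 (OS04G0233400), TIP2-1 (OS02G0658100) and Lsi1 (OS02G0745100). The list was, however, chosen with earlier results of these data known. All 10 were present among the 35679 genes quantified in Oryza sativa. Names are written as in the RefSeq rice annotation, which lists the name of each of the 10 members on the chromosome that the identifier encodes but does not itself pair names with these identifiers. The study's own annotation gives OS02G0745100 as NIP2-1, a silicon influx transporter.

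Whole roots of Nipponbare plants at the 3-leaf stage were compared between Fe deficiency (−Fe), in which the nutrient solution carried no iron for 5 days, and the control condition (CC), in which it carried 100 µM Fe3+-EDTA. Each condition had 2 RNA-seq libraries, and the labels give each library as pooled roots of 3 plants, whereas the study's methods describe pooled RNA of 3 biological replicates. Both conditions shared cultivar, age, preculture in vermiculite and all other salts of the solution, among which the labels list no silicon source. Libraries of the wild species O. rufipogon were not analysed here.

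Aquaporins are membrane channels that let water, and in some subfamilies small uncharged solutes, pass along their gradient. PIP2 proteins are efficient water channels of the plasma membrane, whereas PIP1 proteins move little water on their own and reach the membrane in complexes with PIP2 proteins. TIPs sit in the membrane of the vacuole, and TIP2 proteins of Arabidopsis pass ammonia as well as water. Lsi1 belongs to the nodulin 26-like group and carries silicic acid, and also arsenite, into the root cells at the exodermis and endodermis of rice, where an efflux carrier on the opposite face of the same cells passes silicon on towards the stele.

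The libraries held 24123205 and 25312301 estimated counts under −Fe, against 22911261 and 23019020 under CC, so that 3 counts, the limit that a count of 0 allows, came to between 0.122 and 0.130 CPM (counts-per-million, scaled to TMM-adjusted library size). The treatment was visible in the Fe uptake genes. IRT1, a ferrous iron transporter, rose by 1.98 (SE 0.129) on the log2 scale, IRT2, its close relative, by 4.07 (SE 0.279), NAS1, which makes nicotianamine, by 3.44 (SE 0.161), and YSL15, a carrier of iron bound to phytosiderophore, by 2.99 (SE 0.0969), all with a false discovery rate (FDR, edgeR quasi-likelihood test, Benjamini-Hochberg over all genes) of at most 0.000162. Of 25767 genes tested, 6.63% passed an FDR of 0.05, 3.66% lower and 2.98% higher under −Fe. Leaf marker identifiers, which a root should lack, summed to 262 and 114 TPM (transcripts-per-million, corrected for length) under −Fe and to 212 and 312 TPM under CC, with 0 of 5 past the test. Root marker identifiers summed to 794 and 1030 TPM under −Fe and to 1499 and 1994 TPM under CC, with 0 of 3 past the test. Nearly all of this sum came from OS02G0662000, at 788 and 1024 TPM under −Fe and 1490 and 1986 TPM under CC. The other root markers had at most 7.37 TPM in any library. The part of the root and leaf markers in the results that follow was not tested.

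Lsi1, the silicon influx channel, had the largest fall of the 10 members under −Fe. Its level was 589 and 723 CPM in the −Fe libraries, against 2057 and 1536 CPM in the CC libraries. The groups were far apart, since the lower CC library stood 2.12 times above the higher −Fe library, while the libraries of 1 group differed by 1.23 times under −Fe and 1.34 times under CC. The means were 656 ± 94.6 CPM under −Fe and 1797 ± 369 CPM under CC (SD, n = 2 each). Lsi1 thus fell to 36.5% of its CC level, a log2 fold change of −1.45 (SE 0.170, 95% interval −1.86 to −1.05), with an edgeR FDR of 0.00368. The call held in 13 of 14 alternative fits, 1 of which, a crossed replicate block, was added after the data were seen. It was lost with the replicate block (log2 fold change −1.45, edgeR FDR 0.126). Log2 fold changes lay between −1.65 and −1.23, and both ends came from fits that left out 1 library. In bulk roots, fewer cells carrying a transcript and less of it per cell cannot be told apart, for Lsi1 and for every gene below.

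Relative to other genes, Lsi1 stood out in CPM more than in fold. Among all tested genes, the difference of 1141 CPM between its CC and −Fe means had rank 2, whereas by log2 fold change Lsi1 ranked 144th among the falls of the 19280 genes with a mean count of at least 50. On the length-corrected TPM scale its rank among all genes was 218 under −Fe and 35 under CC. Lsi1 took 10.1% of the counts of the 10 members under −Fe and 20.8% under CC, and it made up 52.5% of the summed difference of the 10 members in CPM.

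**Figure D1:**
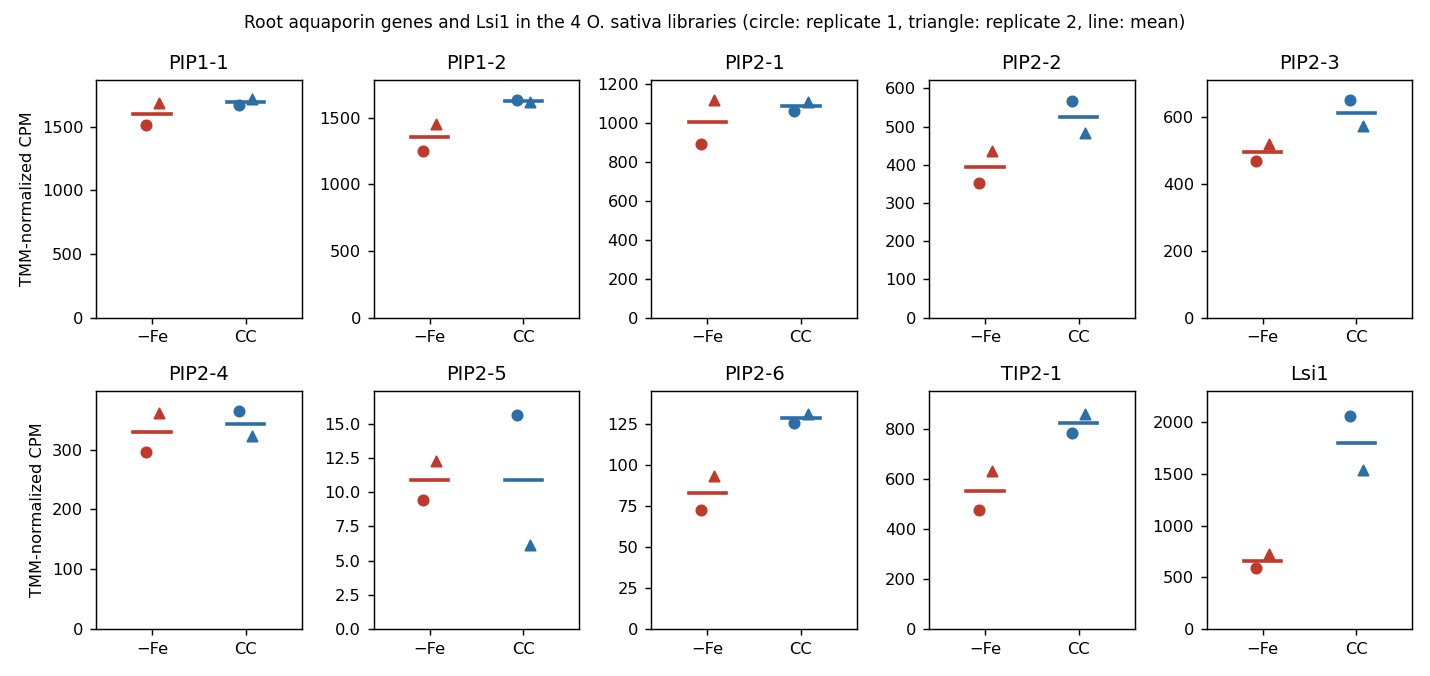
Level of each of the 10 members in CPM in the 2 −Fe and the 2 CC libraries, with 1 panel a gene on its own linear axis from 0, points for libraries (circle replicate 1, triangle replicate 2) and lines for group means. The −Fe libraries of Lsi1 stand at 589 and 723 CPM, below its CC libraries at 2057 and 1536 CPM, whereas those of PIP1-1, PIP2-1, PIP2-4 and PIP2-5 overlap with CC.

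The genes whose profile over the 4 libraries lay closest to that of Lsi1 were searched among the 19280 genes with a mean count of at least 50, by the distance between centred log2 CPM values. The nearest were OS02G0668500 (distance 0.11), OS11G0593000 (0.12), OS09G0286600 (0.14), OS10G0376200 (0.16) and OS02G0325600 (0.17). The study annotates OS09G0286600 as a protein with an AP2/ERF domain, the DNA-binding domain of ethylene response factors, OS10G0376200 as a leucine-rich repeat protein and OS02G0325600 as NIGT1, a nitrate-inducible transcriptional repressor. Their log2 fold changes lay between −1.54 and −1.34, and all 5 had at most 102 CPM in any library. NIGT1, for instance, had 4.73 and 6.06 CPM under −Fe and 15.9 and 13.7 CPM under CC. With 4 libraries such likeness is a description of this profile alone.

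Of the 2 identifiers listed as silicon efflux carriers, OS03G0107300 fell as well. It had 536 and 686 CPM under −Fe, against 1587 and 1144 CPM under CC, with no overlap between the groups. Its log2 fold change was −1.16 (SE 0.197, 95% interval −1.65 to −0.67, edgeR FDR 0.0273), its difference of 754 CPM had rank 3 of all genes, next to that of Lsi1, and its profile ranked 14th in likeness to Lsi1. The call held in 11 of 14 alternatives, and the losses included the fit without −Fe replicate 1 (log2 fold change −0.97, edgeR FDR 0.135) and that on the most abundant transcript (−1.16, edgeR FDR 0.0603). OS10G0547500, the other identifier, had a log2 fold change of 0.23 that did not pass the test (edgeR FDR 0.172). Names for these identifiers are not given by the files, and the list they come from was set up with earlier results of these data known.

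PIP2-6 was the other member that fell. This plasma membrane channel had 72.2 and 93.1 CPM in the −Fe libraries, against 125 and 131 CPM in the CC libraries. Both −Fe libraries were below both CC libraries, and the CC pair lay closer together than the −Fe pair. The means were 82.6 ± 14.8 CPM under −Fe and 128 ± 4.08 CPM under CC (SD, n = 2 each), which placed −Fe at 64.4% of CC. The log2 fold change was −0.63 (SE 0.120, 95% interval −0.92 to −0.35, edgeR FDR 0.0245). The call held in 10 of 14 alternatives. Beside the fit on the most abundant transcript (edgeR FDR 0.0743), it was lost without −Fe replicate 1 (log2 fold change −0.44, FDR 0.0618), without CC replicate 1 (−0.67, FDR 0.108) and without CC replicate 2 (−0.60, FDR 0.179).

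TIP2-1, the vacuolar member, had a difference of similar size that did not pass the threshold. Its level was 474 and 631 CPM under −Fe, against 783 and 862 CPM under CC. The groups did not overlap, and the −Fe libraries were further from each other than the CC libraries. Means were 552 ± 111 CPM under −Fe and 822 ± 55.6 CPM under CC (SD, n = 2 each), with a log2 fold change of −0.57 (SE 0.142, 95% interval −0.91 to −0.24, edgeR FDR 0.0588). It passed 0.05 in 6 of 14 alternative fits, among them DESeq2 (FDR 0.00251) and the fit without −Fe replicate 2 (−0.79, edgeR FDR 0.0195).

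**Figure D2:**
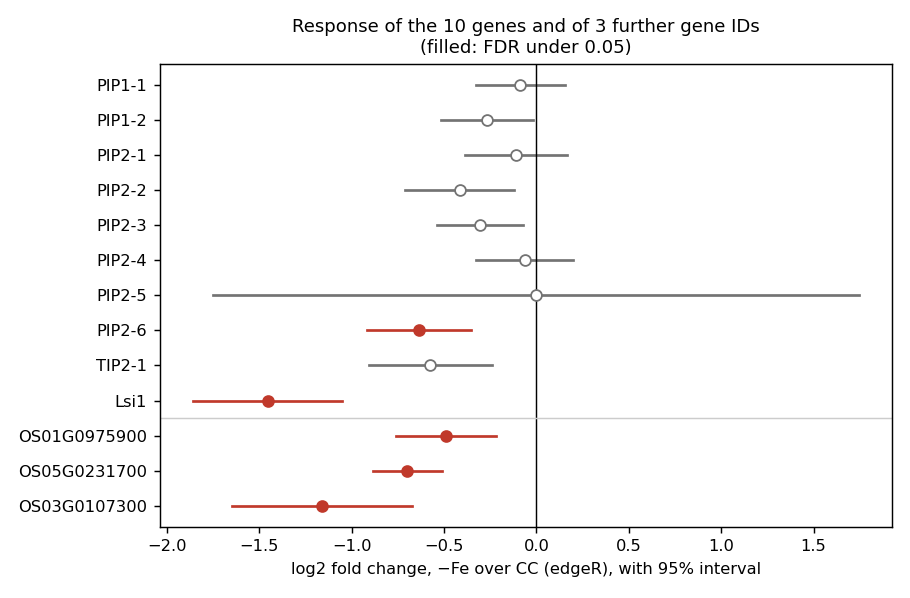
Log2 fold change, −Fe over CC, of the 10 members and, under the line, of 3 further identifiers, with 95% intervals from edgeR's quasi-likelihood fit on the 4 libraries and filled points for an FDR under 0.05. Of the members, Lsi1 at −1.45 and PIP2-6 at −0.63 passed it, and PIP2-5 has the widest interval, from −1.75 to 1.75.

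The 2 PIP1 members did not pass the test. PIP1-1 had 1512 and 1685 CPM under −Fe and 1674 and 1722 CPM under CC, and the groups overlapped. Its log2 fold change was −0.09 (SE 0.106, edgeR FDR 0.720), and the 95% interval of the fold ran from 0.797 to 1.11 times the CC level, so that a fall of the size seen in Lsi1 lay outside it. PIP1-2 had 1251 and 1455 CPM under −Fe and 1635 and 1618 CPM under CC, without overlap and with a log2 fold change of −0.27 (SE 0.110, 95% interval −0.52 to −0.02, edgeR FDR 0.216). Summed over the pair, the level was 2763 and 3139 CPM under −Fe and 3309 and 3340 CPM under CC.

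Among the PIP2 members other than PIP2-6, none of 5 passed the test. PIP2-1, the PIP2 member with the most counts, had 891 and 1118 CPM under −Fe and 1059 and 1106 CPM under CC, which overlapped. Its log2 fold change was −0.11 (SE 0.122, 95% interval −0.38 to 0.17, edgeR FDR 0.696). PIP2-2 had 351 and 436 CPM under −Fe and 566 and 484 CPM under CC (−0.42, SE 0.127, edgeR FDR 0.106). PIP2-3 had 468 and 520 CPM under −Fe and 649 and 571 CPM under CC (−0.31, SE 0.102, edgeR FDR 0.128). In both PIP2-2 and PIP2-3 the −Fe libraries lay below the CC libraries without overlap, and their 95% intervals, from −0.71 to −0.12 and from −0.54 to −0.07, excluded a fall as large as that of Lsi1. PIP2-2 passed 0.05 in 3 of 14 alternatives, with adjusted p-values of 0.0468 by DESeq2 and 0.0477 and 0.0456 by limma on TPM.

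PIP2-4 and PIP2-5 are neighbours by identifier on chromosome 7 and differed widely in level. PIP2-4 had 297 and 361 CPM under −Fe and 365 and 322 CPM under CC. Its log2 fold change was −0.06 (SE 0.114, 95% interval −0.33 to 0.20, edgeR FDR 0.822). PIP2-5 had 9.42 and 12.3 CPM under −Fe and 15.6 and 6.11 CPM under CC. The CC libraries of PIP2-5 differed by 2.56 times and enclosed both −Fe libraries. Its log2 fold change of −0.0014 (SE 0.559, edgeR FDR 0.999) therefore had a 95% interval from −1.75 to 1.75, and a change as large as that of Lsi1 in either direction was not detectable in these libraries.

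Over the 10 members, 2 fell, 0 rose and 8 did not pass the test, beside 3.66% of all tested genes, and 5.99% of the 5742 genes with a mean count of at least 1000, that fell. In CPM, both −Fe libraries were below both CC libraries in 6 members, beside 27.1% of tested genes. The groups overlapped in the other 4, and 51.6% of tested genes were without overlap in either direction. In TPM the groups of PIP1-1 and PIP2-1 did not overlap either, and the share of all genes was not computed on that scale. An unadjusted p under 0.05 was met by 6 members, beside 20.3% of tested genes. The fold change was below 0 in all 10, PIP2-5 included, whose sign turned in 10 of 14 alternatives, beside 50.8% of tested genes. The median log2 fold change was −0.29 over the members and −0.01 over all tested genes. Abundant genes met these criteria more often than all tested genes. Of the 5742 with a mean count of at least 1000, 2002 had both −Fe libraries below both CC libraries. An unadjusted p under 0.05 was met by 1752 of these 5742, and 3181 had a fold change below 0. Since the list was chosen with earlier results of these data known, these counts describe it and are not a test. All 10 members passed the filter on low counts. No member's difference could be called from ranks alone, since an exact permutation of 2 against 2 libraries gives a two-sided p of 0.333 at best.

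The members also varied in the same direction between the 2 −Fe libraries, but not between the 2 CC libraries. All 10 were lower in −Fe replicate 1 than in −Fe replicate 2, as were 49.3% of the tested genes and 56.7% of those with a mean count of at least 1000. Under CC, 6 of the 10 were higher in replicate 1. Without −Fe replicate 1 the log2 fold changes of PIP1-1, PIP2-1 and PIP2-4 became 0.016, 0.073 and 0.096. The count of members that fell was 1 without that library, 3 without −Fe replicate 2, and 1 without either CC library.

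**Figure D3:**
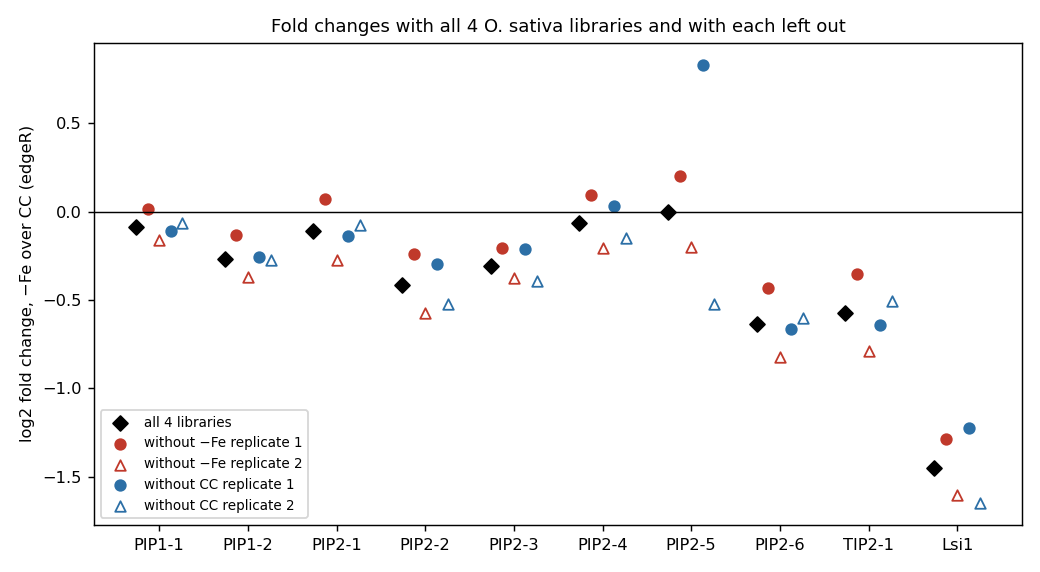
Log2 fold change of each member, −Fe over CC, in the fit on all 4 libraries and in the fits that leave out 1 library. Lsi1 lies between −1.65 and −1.23 in all of these, whereas PIP1-1, PIP2-1, PIP2-4 and PIP2-5 cross 0.

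PIP genes resemble one another in sequence, and short reads that match several transcripts are divided among them by the quantification. Estimated counts that were not whole (by more than 0.01) marked such reads in 9 of the 10 members (90.0%), against 34.8% of 23 further aquaporin identifiers and 43.1% of all genes with counts. Lsi1 was the exception, with whole counts of 14317 and 17779 under −Fe and 47993 and 35458 under CC. For the PIP members, single-gene values are therefore uncertain to the extent that reads were divided, and which pairs shared reads was not tested. Sums over genes do not depend on a division within the sum, but reads divided with genes outside it still affect them. OS02G0823100, a further aquaporin identifier outside the sums below, also had counts that were not whole in all 4 libraries. The 8 PIP genes together had 4852 and 5680 CPM under −Fe and 6090 and 5962 CPM under CC, which is 87.4% of CC (log2 ratio of means −0.19), without overlap. The 6 PIP2 genes had 2089 and 2540 CPM under −Fe and 2781 and 2621 CPM under CC (−0.22). The 3 genes on chromosome 7, PIP2-1, PIP2-4 and PIP2-5, had 1197 and 1491 CPM under −Fe and 1440 and 1434 CPM under CC, which overlapped (−0.10). No p is given for sums over chosen genes.

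Most members have 1 transcript model, and in PIP2-1 the models differed enough to change how the gene reads. A model of 208 bases took 42.0% and 37.4% of the counts of PIP2-1 under −Fe, against 38.6% and 50.7% under CC. Because TPM divides by length, the same short model made up 83.8% and 81.0% of the TPM of the gene under −Fe, against 81.8% and 88.0% under CC. The model of 1297 bases alone had a log2 fold change of 0.021 (SE 0.175, edgeR FDR 0.971), and the short one −0.29 (edgeR FDR 0.446). In PIP2-2 a model of 615 bases held 19.1% and 17.1% of the counts under −Fe and 18.4% and 29.3% under CC. The second model of PIP2-6 was listed at 0 in all 4 libraries.

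Compared per length in TPM, the members spanned more than 2 orders of magnitude. PIP2-1 stood first in both conditions, at 3048 and 3361 TPM under −Fe and 3413 and 4279 TPM under CC, a place it owed to its 208-base model. By CPM per kilobase of effective length, here without TMM scaling, it had rank 3 under −Fe and rank 5 under CC. PIP1-1 followed at 1647 and 1750 TPM under −Fe and 1824 and 1845 TPM under CC, and PIP1-2 at 1333 and 1479 TPM under −Fe and 1743 and 1698 TPM under CC. These PIP1 members did not overlap with each other in either condition.

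Lsi1 and TIP2-1 exchanged places. Under −Fe, Lsi1 had rank 5, at 517 and 605 TPM, below TIP2-1 at 680 and 863 TPM. Under CC, Lsi1 had rank 4, at 1806 and 1327 TPM, above TIP2-1 at 1124 and 1217 TPM, and its range took in the levels of PIP1-2. PIP2-3 had 455 and 482 TPM under −Fe and 632 and 547 TPM under CC, and PIP2-2 had 429 and 499 TPM under −Fe and 687 and 633 TPM under CC, so that these neighbours overlapped under −Fe and were set apart under CC only by the gap between 633 and 632 TPM. By CPM per kilobase, PIP2-3 ranked above PIP2-2 in both conditions. PIP2-4 had rank 8, at 303 and 352 TPM under −Fe and 373 and 324 TPM under CC. PIP2-6 had rank 9, at 68.4 and 84.1 TPM under −Fe and 119 and 122 TPM under CC, and PIP2-5 had rank 10, at 12.96 and 16.2 TPM under −Fe and 21.6 and 8.28 TPM under CC.

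**Figure D4:**
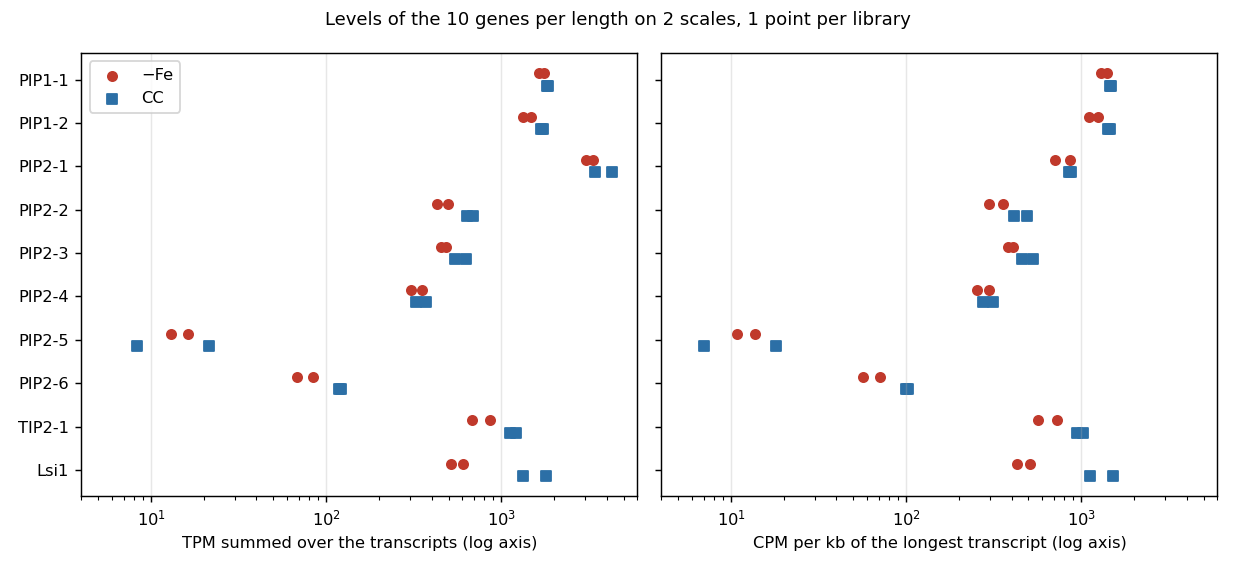
Level of each member per length, in TPM (left, log axis) and in CPM per kilobase of the effective length of the longest transcript (right, log axis), with each point a −Fe or a CC library. In TPM, PIP2-1 is highest in both conditions, whereas on the right it has rank 3 under −Fe and rank 5 under CC, and on both scales Lsi1 lies below TIP2-1 under −Fe and above it under CC.

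Of the 23 further aquaporin identifiers, 17 had enough counts to be tested, and 2 fell, 0 rose and 15 did not pass the test, with a median log2 fold change of −0.18. Over all tested genes, 3.66% fell and 2.98% rose, with a median of −0.01. OS05G0231700, annotated by the study as similar to a tonoplast intrinsic protein, had 42.7 and 44.9 CPM under −Fe against 74.2 and 68.1 CPM under CC, a log2 fold change of −0.70 (SE 0.0823, edgeR FDR 0.00119) that passed in all 14 alternatives. OS01G0975900, which the study names TIP1-2, had 47.7 and 48.5 CPM under −Fe against 59.4 and 75.7 CPM under CC (−0.49, SE 0.116, edgeR FDR 0.0488) and passed in 7 of 14. The losses included the fits without −Fe replicate 1 (−0.45, edgeR FDR 0.258), −Fe replicate 2 (−0.49, edgeR FDR 0.159) and CC replicate 2 (−0.30, edgeR FDR 0.275). Among the aquaporins tested, the calls were thus Lsi1, PIP2-6 and these 2 tonoplast identifiers. The remaining identifiers of this list were assigned to the family from general knowledge and are not annotated in the files.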

How the data were processed

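Single-end RNA-seq reads of O. sativa roots were quantified by the authors with kallisto against IRGSP-1.0 transcripts, and the deposited tables give, per transcript, estimated counts, TPM and length in bases. Versions are not given in the sources used here. The deposited estimated counts were summed per gene (42346 transcripts, 35679 genes) and rounded, and deposited TPM was summed without change. A gene entered the test if 2 or more of the 4 libraries held 5 or more counts. It used edgeR 4.0.16 (quasi-likelihood, robust, TMM, treatment as the only term) in R 4.3.3, two-sided, with Benjamini-Hochberg adjustment over all genes and an FDR of 0.05. CPM values are TMM-scaled, except those per kilobase. The standard error is the absolute log2 fold change divided by the square root of F. Levels between genes were compared in TPM.

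Alternatives were DESeq2 1.42.0, median-ratio factors, other filters (none, or 10 counts throughout), limma 3.58.1 on log2(CPM + 0.5), log2(TPM + 1) and log2(TPM + 0.1), the most abundant transcript, a replicate block and leaving out each library. A crossed replicate block, with the replicate numbers exchanged under CC, was added after the data were seen. The fit was first tested on simulated counts, in which it recovered 25% of 100 changes of 1.5-fold and 100% of 100 changes of 3-fold. Libraries of 1 group differed beyond counting noise (chi-square per degree of freedom 9.94 for −Fe and 7.56 for CC). The p-values rest on the spread between these pooled libraries, which leaves 2 residual degrees of freedom. The edgeR fit also borrows variance information from all genes, so a p-value does not measure a gene's own spread alone.

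Members and lists were chosen with earlier results of these data known. The genes named were the 10 members, further aquaporin and silicon efflux identifiers past the FDR or at a mean of at least 100 TPM, IRT1, IRT2, NAS1 and YSL15, and the 5 genes nearest to Lsi1. Of 4 root marker identifiers, 3 matched a row of the files. The RefSeq annotation used is of another assembly, so no coordinates are given, and promoter and protein sequences were not analysed here.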

Additional observations from a re-analysis of the deposited data

How the results depend on the processing

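Lsi1 kept its direction in 14 of 14 alternatives and passed the FDR of 0.05 in 13. The exception was the replicate block, under which its log2 fold change was −1.45 with an edgeR FDR of 0.126, and OS03G0107300 lost its call under it too (−1.15, edgeR FDR 0.281). The replicate numbers were not taken to pair the libraries in the main fit. Deviations of same-numbered libraries from their group means correlated at −0.14 across 19280 genes. With 2 libraries a group, this single value cannot decide whether they are paired. The block called 1717 genes, and the crossed block, added after the data were seen, called 2036. Of the single-member values under alternatives, 111 kept direction and side of the threshold and 15 changed sign. For PIP2-5 the sign turned with DESeq2 (0.0088), median-ratio factors (0.0084), at least 10 counts in every library (0.0011), limma on log2(CPM + 0.5) (0.13), on log2(TPM + 1) (0.10) and on log2(TPM + 0.1) (0.11), the replicate block (0.11) and the crossed block (0.10), and for PIP2-1 with the most abundant transcript (0.021). Leaving out 1 library gave ranges of −0.16 to 0.016 for PIP1-1, −0.27 to 0.073 for PIP2-1, −0.20 to 0.10 for PIP2-4, −0.53 to 0.83 for PIP2-5 and −1.65 to −1.23 for Lsi1. The 2 members called became 4 with DESeq2, 3 with no filter, at least 10 counts, limma on either TPM scale or the crossed block, 1 with the most abundant transcript (PIP2-6 then had an FDR of 0.0743) and 1 to 3 without 1 library. The 2 further aquaporins called became 3 with DESeq2 or the replicate block, 1 with median-ratio factors, 1 with limma on CPM and 1 to 3 without 1 library. The 1709 genes called became 834 transcripts with the most abundant transcript and 613 to 1194 genes without 1 library. By CPM per kilobase the TPM rank of Lsi1 under CC moved to 3, and that of PIP2-1 to 3 under −Fe and 5 under CC. PIP1-1 and PIP1-2 then took ranks 1 and 2 in both conditions. Under CC, TIP2-1 took rank 4, PIP2-3 rank 6 and PIP2-2 rank 7. The cause of these moves was not tested, except that those of PIP2-1 in rank follow from the 208-base model. Lsi1 moved up under CC because PIP2-1 then ranked below it. With 1 library left out, the lone library is assumed to vary like the other group. With 2 libraries a group, the 95% intervals given with each member are what limits the 8 that were not called.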

Other observations

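Further abundant aquaporin identifiers, which the files do not annotate, did not pass the test, and their difference from Lsi1 was not tested. OS03G0146100, with 1144 and 1643 CPM under −Fe and 1242 and 1227 CPM under CC, had a log2 fold change of 0.17 (edgeR FDR 0.646). OS02G0823100 had 633 and 655 CPM under −Fe and 675 and 555 CPM under CC (0.07, edgeR FDR 0.806). OS06G0336200 had 401 and 545 CPM under −Fe and 689 and 793 CPM under CC, without overlap, and missed the threshold (−0.65, edgeR FDR 0.0653), much as TIP2-1 did.

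The identifier OS02G0662000, listed as a root marker and singled out here after its values were seen, had 523 and 712 CPM under −Fe and 989 and 1339 CPM under CC. Its log2 fold change of −0.91 did not pass the test (edgeR FDR 0.0770), while its difference in CPM had rank 5 of all genes, where Lsi1 and OS03G0107300 had ranks 2 and 3.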
